A study of Homo sapiens with 24 samples.

Results

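The response of GPD1-overexpressing A549 cells to metformin was described from 6 of the 24 libraries of the series, and from all 12607 genes of 58302 in the table whose mean reached 1 FPKM (fragments per kilobase of exon, scaled to library depth) over the 12 A549 libraries. A549 is an established line of human lung adenocarcinoma cells. The cells carried a lentivirus that overexpresses GPD1 and were cultured with 10 mM metformin (3 libraries) or without it (3 libraries). The 6 other A549 libraries, from cells with a blank vector lentivirus and the same 2 conditions, were used to test whether the drug acted differently in the GPD1 cells. The promoter that drives the transgene, the number of transductions and the length of treatment are not given. Separate cultures are not named for the 3 libraries of a group, and p-values then reflect only library-to-library spread, which may be technical.

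The diabetes drug metformin, a biguanide, slows complex I of the mitochondrial respiratory chain, so that NADH is reoxidised less. GPD1 encodes a glycerol-3-phosphate dehydrogenase of the cytosol that reoxidises NADH there while turning dihydroxyacetone phosphate into glycerol 3-phosphate. Cells with impaired mitochondria are known to raise the integrated stress response, a programme that slows translation and turns on genes of ATF4 and CHOP, and the energy sensor AMPK, which restrains growth.

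GPD1 (ENSG00000167588, chromosome 12, 50103819 to 50111319, GRCh38) was measured at 15.7, 16.8 and 15.1 FPKM in the untreated and 13.3, 13.8 and 13.3 FPKM in the metformin libraries of the GPD1 cells, and at 0.0770 FPKM or less on average in either vector group, so the labels of all 6 GPD1 libraries hold. Its small difference with the drug turned with the scaling, from -0.22 log2 units to 0.02 with median-ratio and 0.23 with upper-quartile factors. The keratins KRT8 and KRT18 stood at 85.4 to 148.9 FPKM in the GPD1 libraries, while the surfactant genes SFTPA1 and SFTPB and the endothelial gene CDH5 were listed at 0 in all 6. Other markers were mixed. Among epithelial genes KRT7 reached 350.8 FPKM, but EPCAM reached only 1.568 FPKM and KRT19 only 0.08687 FPKM. The alveolar gene ABCA3 stood at 10.47 to 13.77 FPKM and the leukocyte gene CD14 at 5.953 to 10.75 FPKM, while CD3E, also of leukocytes, was at 0. Of the fibroblast genes COL1A1 stood at 2.952 to 3.731 FPKM and COL1A2 at 0. The steps between low values correspond to 13.3 to 18.0 M reads per library. Genes with any value above 0 numbered 25471 to 26739 in untreated and 23472 to 23993 in metformin libraries of the GPD1 cells, and the cause was not tested.

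Most tested genes were called as changed with metformin in the GPD1 cells, though not all of these calls held under every scaling. In limma on log2(FPKM + 1), 9349 of 12607 tested genes (74.2%) had an adjusted p under 0.05, of which 3293 rose (26.1% of those tested) and 6056 fell (48.0%). In 9151 of the called genes the 3 metformin libraries did not overlap the 3 untreated ones. This balance depended on how libraries were set to a common scale: 35.2% of calls were higher with the deposited values, 49.2% with median-ratio and 61.6% with upper-quartile factors, and 17.3% with totals that leave out mitochondrial genes. The median log2 fold change of all tested genes was accordingly -0.20, -0.01, 0.16 and -0.49. Genes that rose under all 4 scalings numbered 1706 (13.5%) and genes that fell under all 4 numbered 3622 (28.7%). Below, a list of genes is described by its counts under the deposited scale and under all 4 scalings, and by its relative median, which is the median log2 fold change of its tested members minus that of all tested genes. Folds are ratios of mean FPKM.

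The transcripts of the mitochondrial genome, which encodes 13 subunits of the respiratory chain and ATP synthase, had the lowest relative median of the lists described here. Their sum, with the mitochondrial ribosomal RNAs and tRNAs, took 30.2%, 32.3% and 30.9% of all FPKM in the untreated GPD1 libraries and 10.3%, 11.1% and 11.4% in the metformin libraries. The summed FPKM of nuclear genes was correspondingly 195110 to 200018 without the drug and 256217 to 261303 with it. All 13 protein-coding genes fell under all 4 scalings, with a relative median of -3.33. A lower level in bulk RNA can mean fewer cells with a transcript or less of it per cell, and these cannot be told apart.

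The fall was uneven along the mitochondrial genome. MT-ND3, a complex I subunit, stood at 1893, 1980 and 2206 FPKM without metformin and at 55.4, 55.6 and 57.3 FPKM with it, 36.1-fold lower (log2 fold change -5.15, SE 0.16; limma, adjusted p = 8.5e-10). MT-ND1 fell 15.7-fold and MT-CO2, a subunit of cytochrome c oxidase, 16.4-fold. MT-ND4 and MT-ND4L, which share one transcript, stood at the other end: MT-ND4 was at 5228, 5802 and 5433 FPKM untreated and 2677, 2927 and 3020 FPKM treated, 1.91-fold lower, and MT-ND4L was 2.18-fold lower. The groups of 3 libraries did not overlap for any of these 5 genes. MT-ND6, the one protein-coding gene on the light strand, fell 11.6-fold. For MT-CYB the untreated libraries held 1957, 2214 and 2097 FPKM and the metformin libraries 191, 0 and 0 FPKM, and as other mitochondrial genes were far above 0 in the same libraries no fold is given for it.

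**Figure D1:**
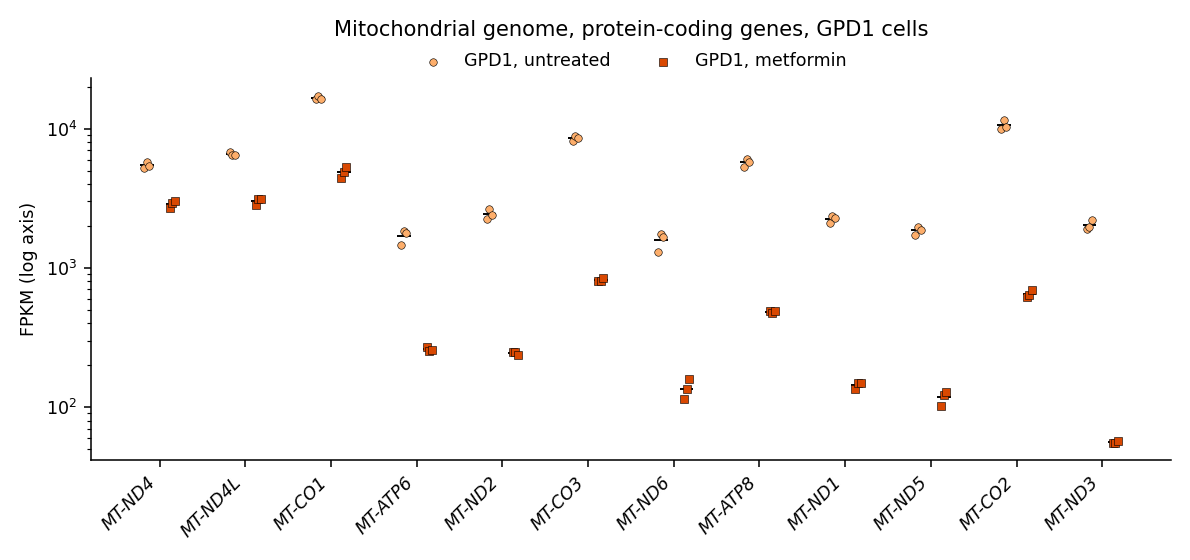
FPKM on a log axis of 12 mitochondrial genes in the 3 untreated (circles) and 3 metformin (squares) libraries of GPD1 cells, with bars at group means. In every gene shown the metformin libraries lie below the untreated ones, by least for MT-ND4 and most for MT-ND3.

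The drug acted more strongly on these transcripts in GPD1 than in vector cells. The difference of the metformin effect between the 2 cell populations (GPD1 minus vector, the interaction of the model) was called in 5791 of all tested genes (45.9%), in 2407 with the higher effect in GPD1 cells (19.1%) and in 3384 with the lower (26.8%), and under all 4 scalings in 1799 (14.3%) and 2482 (19.7%). Of the 13 mitochondrial genes, 10 fell further in GPD1 cells and 9 did so under all 4 scalings. MT-ND3 differed by -2.38 log2 units (95% interval -2.87 to -1.89; limma, adjusted p = 1.3e-05) and MT-ND1 by -2.02 (limma, adjusted p = 5.5e-06). For MT-ND4 the difference was -0.05 (95% interval -0.22 to 0.11), which did not pass the test.

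Of 21 tested genes of mitochondrial DNA maintenance and transcription, 3 rose and 13 fell (2 and 6 under all 4 scalings). The relative median was -0.09, and the share that fell under all 4 is close to that of all tested genes (28.7%). TWNK, the replicative helicase of mitochondrial DNA (ENSG00000107815, chromosome 10, 100987367 to 100994401), stood at 8.45, 8.66 and 9.01 FPKM untreated and at 0.747, 0.525 and 0.587 FPKM with metformin. It was thus 14.1-fold lower (limma, adjusted p = 4.8e-08), whereas in vector cells it was at 9.99 FPKM without and 9.69 FPKM with the drug, and the interaction was -2.52 log2 units (limma, adjusted p = 5.3e-06). TFAM, which packages mitochondrial DNA and starts its transcription, fell 2.57-fold, from 10.9 ± 0.599 to 4.23 ± 0.271 FPKM (mean ± SD, n = 3), with an interaction of -0.84 (limma, adjusted p = 2e-05). MGME1, a nuclease of mitochondrial DNA replication, fell 2.02-fold. RRM2B, the p53-regulated subunit of ribonucleotide reductase, rose 2.32-fold, and TOP1MT, the mitochondrial topoisomerase, 1.59-fold.

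Of 19 tested genes that process and hold mitochondrial RNA, 14 fell and 2 rose (7 and 0 under all 4 scalings). Beside them stand 48.0% and 26.1% of all tested genes (28.7% and 13.5% under all 4). The relative median of the list was -0.15. TRMT10C, a subunit of the RNase P that frees mitochondrial tRNAs from their precursors, stood at 11.3, 10.6 and 10.1 FPKM in untreated and 0.7, 0.734 and 0.934 FPKM in metformin libraries, 13.5-fold lower (limma, adjusted p = 2.8e-09). The vector cells were at 11.9 FPKM without and 4.75 FPKM with the drug, and the interaction was -1.53 (limma, adjusted p = 1.2e-05). FASTKD1 and FASTKD2, RNA-binding proteins of the mitochondrial matrix, fell 3.14-fold and 2.55-fold.

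The nuclear partners of these subunits did not fall with them as a group. Of 37 nuclear complex I subunits 19 rose and 7 fell, and the relative median was 0.39 (0.31 to 0.45 over the 4 scalings). Only 4 and 1 of them passed under all 4. NDUFV2, of the NADH-oxidising arm, rose 1.55-fold and NDUFC1 1.73-fold, and NDUFS1, the largest subunit, fell 1.97-fold. Among 25 nuclear subunits of complexes II to IV the counts were 16 and 3, with UQCRB of complex III 2.04-fold and COX7A2 of complex IV 1.86-fold higher, and cytochrome c (CYCS) 1.74-fold lower. Among 16 nuclear ATP synthase subunits 7 rose and 2 fell, and ATP5F1E rose 1.97-fold. Short genes gave higher fold changes throughout the table, as described further below, and these subunits are short. With a length trend removed from each library the relative medians of the 3 lists were 0.24, 0.44 and 0.26.

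The inducible HSP70 genes of the cytosolic heat shock response rose in GPD1 cells, with a higher metformin effect than in vector cells. Under proteotoxic stress HSF1 binds heat shock elements in the promoters of chaperone genes. HSPA1A and HSPA1B, neighbouring genes for the inducible HSP70, rose 13.2-fold and 15.7-fold in GPD1 cells. In vector cells neither had a higher mean with the drug. The 2 genes are near-identical copies, and how reads that match both were counted is not given, so their split is uncertain. Their promoters are shown to let that likeness be seen, with those of HSPA6 and HSPA8, in which an exact heat shock element was found, and of PPP1R15A, which rose by the largest fold of the integrated stress response list. Each is the last 120 bases before the RefSeq start (GRCh38.p14), 5′ to 3′ on the gene's strand. Capitals mark matches on either strand to the motifs searched: the CCAAT box (ATTGG in reverse), the TATAAA box, the cAMP response element TGACGTCA, the E-box CACGTG, the ATF4 element TGATGNAA and the heat shock element as GAANNTTCNNGAA or its reverse complement TTCNNGAANNTTC.
HSPA1A, chr6:31815423-31815542, plus strand: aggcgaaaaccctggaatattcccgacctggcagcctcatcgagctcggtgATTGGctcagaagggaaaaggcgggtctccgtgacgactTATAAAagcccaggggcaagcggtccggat
HSPA1B, chr6:31827618-31827737, plus strand: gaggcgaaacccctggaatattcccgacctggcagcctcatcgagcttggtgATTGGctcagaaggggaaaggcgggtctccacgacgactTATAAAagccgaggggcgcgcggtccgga
HSPA6, chr1:161524420-161524539, plus strand: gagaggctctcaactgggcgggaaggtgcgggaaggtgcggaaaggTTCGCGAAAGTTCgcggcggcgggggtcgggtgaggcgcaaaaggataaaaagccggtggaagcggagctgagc
HSPA8, chr11:123062137-123062256, minus strand: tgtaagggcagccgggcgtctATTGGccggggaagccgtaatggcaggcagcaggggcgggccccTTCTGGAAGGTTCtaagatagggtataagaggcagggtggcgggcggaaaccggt
PPP1R15A, chr19:48872301-48872420, plus strand: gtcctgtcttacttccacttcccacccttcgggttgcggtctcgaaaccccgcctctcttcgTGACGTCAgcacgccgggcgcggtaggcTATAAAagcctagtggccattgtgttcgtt
With a shift of 1 base, 111 of 119 bases of the HSPA1A and HSPA1B stretches are the same. Both hold TATAAA and ATTGG at matching places and no exact heat shock element by this strict pattern. The pattern was found within 250 bases before the start in 0.44% of all 35116 promoters and in 4 of 21 matched heat shock genes, namely HSPA6, HSPA8, DNAJB6 and CHORDC1. TGACGTCA, in capitals before TATAAA in the PPP1R15A stretch, was in 1.65% of all promoters, and TATAAA in 10.7%. Of 76 tested genes in the 4 lists searched, 63 had a promoter in the table. These matches describe the sequences only.

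HSPA1A (ENSG00000204389, chromosome 6, 31815464 to 31817946) stood at 47.5, 49.4 and 51.5 FPKM in the untreated and at 741, 632 and 584 FPKM in the metformin libraries of GPD1 cells (log2 fold change 3.69, SE 0.23; limma, adjusted p = 1.1e-07). In vector cells it stood at 52.4, 49.7 and 53 FPKM without and 23.8, 31.2 and 55.5 FPKM with the drug. All 3 metformin libraries of GPD1 cells thus lay above every other A549 library, while the 2 vector groups overlapped. The interaction was 4.25 log2 units (95% interval 3.53 to 4.97; limma, adjusted p = 3.8e-06). HSPA1B stood at 15.5, 14.4 and 14.7 and 271, 223 and 208 FPKM in the same order, with an interaction of 4.38 (limma, adjusted p = 4.3e-06). HSPA6, a strictly stress-induced HSP70, went from 0.0941, 0.0727 and 0.0538 to 9.51, 7.12 and 7.30 FPKM. Its vector libraries stood at 0.594, 0.352 and 0.696 FPKM under the drug, and the interaction was 2.59 (limma, adjusted p = 1.2e-06). As the log2 fold change in GPD1 cells was 3.05, above that interaction, HSPA6 also rose on average in vector cells, though by less.

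Of 24 tested heat shock genes 13 rose and 7 fell (9 and 4 under all 4 scalings), and the relative median was 0.52 against 0.13 in vector cells. The metformin effect was higher in GPD1 than in vector cells for 9 of them and lower for 4 (8 and 3 under all 4 scalings). HSPB1, the small heat shock protein HSP27, rose from 182 ± 1.34 to 449 ± 39.9 FPKM (mean ± SD, n = 3), 2.48-fold, against 151 and 177 FPKM in vector cells, with an interaction of 1.07 (limma, adjusted p = 8.5e-06). HSPA8, the constitutive HSC70, rose 1.95-fold with an interaction of 0.90 (limma, adjusted p = 0.00113), and the ubiquitin gene UBB rose 1.61-fold with one of 0.65 (limma, adjusted p = 0.00123). HSPB8 and the HSP40 gene DNAJB1 rose 2.79-fold and 1.99-fold, and for DNAJB1 the interaction of 0.19 (95% interval -0.21 to 0.59) did not pass the test.

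HSP90 genes and their co-chaperones went both ways. HSP90AA1, the inducible cytosolic HSP90, stood at 124, 122 and 122 FPKM untreated and 61.2, 64.7 and 58.5 FPKM treated, 2.0-fold lower (limma, adjusted p = 3.6e-08). STIP1, which joins HSP70 to HSP90, fell 2.93-fold, and the co-chaperone DNAJA1 2.29-fold. Both fell further than in vector cells, with interactions of -0.71 and -0.57 (limma, adjusted p = 0.00023 and 0.00014). HSP90AB1, the constitutive cytosolic HSP90, was higher by 0.36 log2 units (limma, adjusted p = 1.9e-05) but stood at -0.032 with totals that leave out mitochondrial genes. CHORDC1, an HSP90 co-chaperone, rose 1.93-fold.

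**Figure D2:**
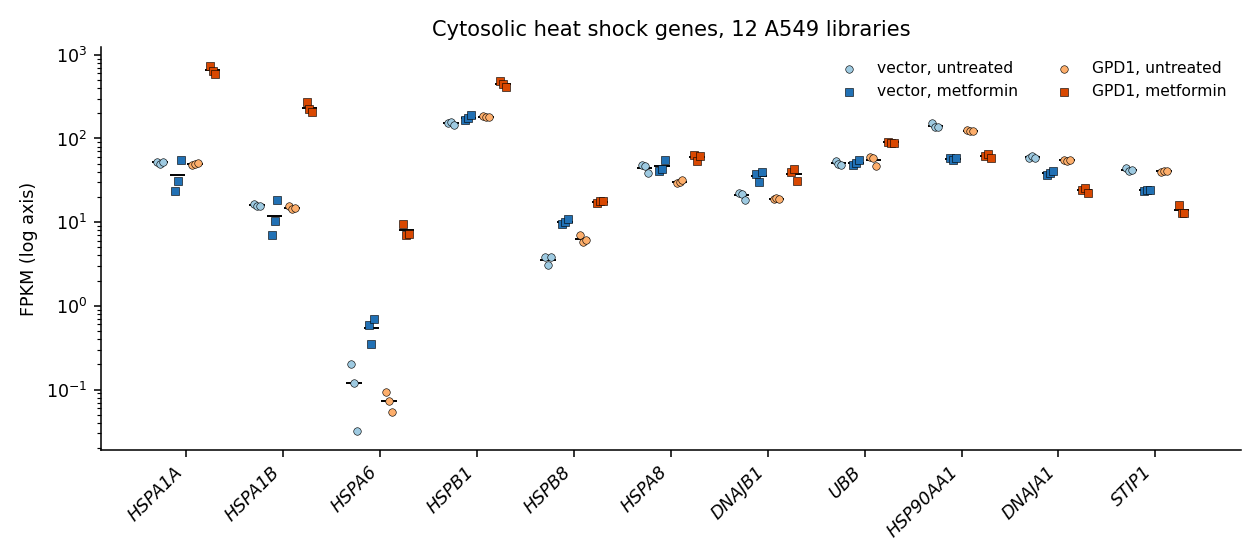
FPKM on a log axis of 11 heat shock genes in the 12 A549 libraries, by cell population and treatment, with bars at group means of 3. The metformin libraries of GPD1 cells stand apart for HSPA1A, HSPA1B, HSPA6 and HSPB1 and fall together with those of vector cells for HSP90AA1.

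Regulators of the integrated stress response rose in part. Of 21 tested regulators 11 rose and 7 fell (10 and 3 under all 4 scalings). ATF4, the transcription factor at its centre, stood at 82.7, 82.7 and 84.0 FPKM without and 163, 162 and 166 FPKM with metformin, 1.97-fold higher (limma, adjusted p = 6.1e-09). In vector cells it went from 82.4 to 244 FPKM, and the interaction was -0.58 (limma, adjusted p = 1.8e-05). DDIT3, which encodes the transcription factor CHOP, stood at 1.30, 1.62 and 1.30 FPKM untreated and 20.0, 14.1 and 13.3 FPKM treated. Its rise was 11.2-fold, and the interaction of -0.90 was towards a smaller effect than in vector cells (limma, adjusted p = 0.00164).

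PPP1R15A, which encodes GADD34, the phosphatase subunit that ends the response, rose more in GPD1 than in vector cells. It stood at 23.8, 23.2 and 23.0 FPKM untreated and at 347, 358 and 347 FPKM with metformin, 15-fold higher. The vector cells reached 144, 168 and 194 FPKM, below all 3 GPD1 libraries, and the interaction was 1.01 (95% interval 0.74 to 1.27; limma, adjusted p = 7.6e-05). NUPR1, a small stress-induced chromatin protein, rose 13.5-fold with an interaction of 1.25 (limma, adjusted p = 2.7e-05). CEBPB and NFIL3, bZIP transcription factors, rose 4.71-fold and 4.34-fold, and ATF3 rose 5.76-fold, from 1.0 ± 0.121 to 5.79 ± 1.61 FPKM.

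SESN2 and EIF2AK3 were among the 7 of 21 regulators that fell, and TRIB3 was among the 3 not called. The others that fell were ATF5, OMA1 and the kinase genes EIF2AK1, EIF2AK2 and EIF2AK4, of which OMA1 alone did so under all 4 scalings. SESN2, the leucine sensor sestrin 2, which restrains mTORC1 and is a target of both ATF4 and p53 (ENSG00000130766, chromosome 1, 28259527 to 28282491), stood at 5.51, 6.76 and 6.70 FPKM in untreated GPD1 cells and at 1.63, 1.66 and 1.93 FPKM with metformin, 3.64-fold lower (limma, adjusted p = 3.2e-08). In vector cells it stood at 7.31, 7.20 and 7.52 FPKM without and 14.7, 14.9 and 13.3 FPKM with the drug, so it was lower with the drug in every GPD1 library and higher in every vector library. The interaction was -2.29 log2 units (95% interval -2.53 to -2.06; limma, adjusted p = 3.4e-07). TRIB3, a pseudokinase and CHOP target, was at 12.8 ± 0.627 and 14.5 ± 0.706 FPKM in GPD1 cells (limma, adjusted p = 0.358) and went from 10.1 to 34.4 FPKM in vector cells (interaction -1.54; limma, adjusted p = 0.00023). EIF2AK3, the ER kinase PERK, fell 1.81-fold with an interaction of -0.96 (limma, adjusted p = 1.4e-05).

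**Figure D3:**
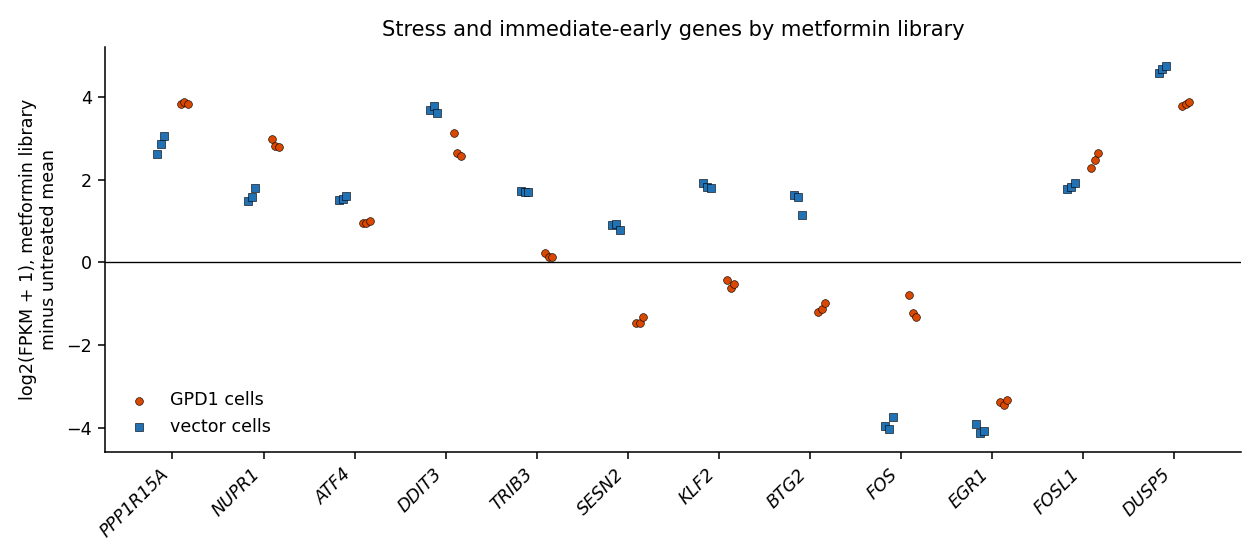
Change in log2(FPKM + 1) of each metformin library from the mean of the untreated libraries of the same cells, for GPD1 (circles) and vector (squares) cells. The points of the 2 populations lie on opposite sides of 0 for SESN2, KLF2 and BTG2, and on the same side for the other 9 genes.

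Secreted stress factors rose as a group. Of 15 tested 12 rose and 2 fell (10 and 1 under all 4 scalings), with a relative median of 1.05. GDF15, a cytokine that acts on the brainstem and that metformin is known to raise in blood, stood at 22, 23.3 and 24.2 FPKM untreated and 529, 484 and 506 FPKM treated, 21.9-fold higher (limma, adjusted p = 2.7e-11). The interaction for GDF15 was 0.12 (95% interval -0.10 to 0.34) and did not pass the test. The EGF receptor ligands HBEGF, AREG and EREG rose 8.64-fold, 3.61-fold and 3.14-fold. STC2, a secreted glycoprotein, and LIF, a cytokine of the interleukin-6 family, rose 3.87-fold and 3.52-fold, and the angiogenic factor VEGFA 3.10-fold.

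Enzymes that make serine, asparagine and one-carbon units went both ways, and most amino acid transporters tested fell on the deposited scale. Of 18 tested genes of synthesis 10 rose and 6 fell (6 and 5 under all 4 scalings). ASNS, asparagine synthetase, stood at 4.77, 3.88 and 9.23 FPKM without and 25.2, 25.8 and 24.4 FPKM with the drug (4.22-fold), MTHFD2, the mitochondrial folate enzyme, rose 3.24-fold, and PCK2, the mitochondrial PEP carboxykinase, 2.01-fold. PSAT1, the transaminase of serine synthesis, rose 1.5-fold in GPD1 cells, from 88.9 ± 2.47 to 133 ± 2.49 FPKM, and went from 102 to 51.6 FPKM in vector cells (interaction 1.55; limma, adjusted p = 3e-07). PSPH, the phosphatase of the last step of serine synthesis, fell 1.98-fold. TYMS and SHMT1, which serve thymidylate synthesis, fell 2.35-fold and 2.74-fold. Of 13 tested transporters 9 fell and 2 rose (5 and 0 under all 4 scalings). Beside them stand 48.0% and 26.1% of all tested genes (28.7% and 13.5% under all 4). SLC38A2, a sodium-coupled importer of neutral amino acids, stood at 27.5, 26.4 and 27.1 FPKM untreated and at 6.18, 6.07 and 5.68 FPKM treated, 4.52-fold lower, with an interaction of -0.96 (limma, adjusted p = 8.3e-05). SLC7A11, the cystine importer, fell 2.91-fold and SLC7A5, the leucine importer, 2.17-fold. Absence of overlap between treated and untreated libraries was a condition for naming these 3 transporters. The cytosolic aminoacyl-tRNA synthetases were divided, with 8 up and 8 down of 20: GARS rose 2.46-fold and YARS 2.01-fold, and FARSA and FARSB, the subunits of 1 enzyme, fell 2.67-fold and 2.26-fold.

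Genes of the unfolded protein response of the endoplasmic reticulum had a relative median of 0.35 against 0.30 in vector cells. Of 23 tested genes 10 rose and 8 fell on the deposited scale, but 5 and 1 under all 4 scalings. The metformin effect was lower in GPD1 cells in 10 and higher in 3 (8 and 2 under all 4 scalings). HSPA5, the chaperone BiP, stood at 123, 121 and 125 FPKM untreated and 262, 264 and 254 FPKM treated, 2.12-fold higher, and reached 523 FPKM from 122 in vector cells (interaction -1.01; limma, adjusted p = 1.8e-06). DNAJB9, an ER co-chaperone, rose 3.57-fold, the sensor ERN1 (IRE1) 2.74-fold and its target transcription factor XBP1 2.52-fold.

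Of 35 proteasome subunits 20 fell and 5 rose (10 and 1 under all 4 scalings), beside 48.0% of all tested genes that fell and 28.7% that fell under all 4. Their relative median was -0.10, and 0.002 with upper-quartile factors. PSMD12, a lid subunit, fell 3.54-fold, from 8.86 ± 0.318 to 2.50 ± 0.134 FPKM, further than in vector cells (interaction -1.13; limma, adjusted p = 2.5e-06). Of 27 lysosome and autophagy genes 17 rose and 7 fell (9 and 2). TFE3, a transcription factor of lysosome genes, stood at 19.6, 20.0 and 19.2 FPKM untreated and 45.2, 46.5 and 48.5 FPKM treated (2.38-fold), and the protease gene CTSL rose 2.35-fold.

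Genes around AMPK and mTORC1 did not rise as a list in GPD1 cells. Of 28 tested 7 rose and 13 fell, the relative median was 0.05 against 0.585 in vector cells. Without metformin library 1, untreated library 1 or untreated library 2 it was -0.036, -0.015 or -0.005. The effect was lower in GPD1 cells for 15 genes (11 under all 4 scalings) and higher for 1. DDIT4 (REDD1), a stress-induced inhibitor of mTORC1, stood at 97.0, 87.1 and 99.1 FPKM untreated and 440.0, 413 and 429 FPKM treated, 4.53-fold higher. RPTOR, the scaffold of mTORC1, fell 3.56-fold and PRKAA1, a catalytic subunit of AMPK, 2.09-fold. The arginine sensor gene CASTOR2 fell 3.79-fold while its paralogue CASTOR1 rose 4.21-fold, from 0.591 ± 0.0563 to 2.48 ± 0.0594 FPKM.

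Immediate-early genes, which growth factor and stress kinases turn on within minutes, split in direction. Of 20 tested 10 rose and 6 fell, 8 and 6 of them under all 4 scalings. EGR1 (ENSG00000120738, chromosome 5, 138465490 to 138469315) stood at 44.6, 40.4 and 37.1 FPKM untreated and 3.01, 2.84 and 3.17 FPKM with metformin, 13.5-fold lower (log2 fold change -3.38, SE 0.08; limma, adjusted p = 2.3e-10). NR4A1, an orphan nuclear receptor, stood at 2.82, 3.20 and 3.36 FPKM untreated and 34.7, 27.2 and 35.6 FPKM treated, 10.4-fold higher. FOSL1, a partner of JUN in AP-1, rose 6.27-fold, IER3 7.18-fold and JUND 3.48-fold.

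FOS and BTG2 differed between the cell populations. FOS stood at 19.4, 22.6 and 22.4 FPKM in untreated and 12, 8.62 and 8.02 FPKM in treated GPD1 cells, 2.25-fold lower. Vector cells went from 23.1 FPKM to 0.538, 0.477 and 0.816 FPKM, a deeper fall, with an interaction of 2.80 (95% interval 2.38 to 3.22; limma, adjusted p = 2e-06). BTG2, an antiproliferative p53 target, stood at 7.72, 7.07 and 6.73 FPKM untreated and 2.58, 2.74 and 3.16 FPKM treated in GPD1 cells, 2.54-fold lower. Vector cells held 5.76 FPKM without and 17.6 FPKM with the drug, and the interaction was -2.55 (limma, adjusted p = 1.2e-06).

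Among the feedback inhibitors of ERK signalling the phosphatases parted. DUSP5, which inactivates nuclear ERK, stood at 44.6, 44.7 and 46.0 FPKM untreated and 634, 658 and 673 FPKM treated, 14.5-fold higher. The untreated GPD1 cells already held more of it than untreated vector cells (16.4 FPKM), and the effect of the drug was smaller by -0.84 log2 units (limma, adjusted p = 4e-06). DUSP1 rose 3.85-fold and DUSP8 8.31-fold, both of which act on stress kinases. DUSP6, the cytoplasmic ERK phosphatase, fell 5.91-fold, from 2.08 ± 0.438 to 0.352 ± 0.0315 FPKM, and SPRED1 and SPRED2, inhibitors of RAF activation, fell 4.14-fold and 1.72-fold. In all 7 of 14 tested rose and 5 fell.

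PIM kinase genes and several transcriptional regulators rose. PIM3, a survival kinase gene, stood at 19.9, 18.6 and 19.6 FPKM untreated and 355, 369.8 and 382 FPKM treated (19.1-fold), PIM1 rose 6.85-fold, and HES4, a helix-loop-helix repressor, 19.3-fold. Of 10 tested PIM, HES and ID genes 9 rose. The clock repressor NR1D1 (REV-ERB alpha) stood at 6.09, 6.72 and 7.80 FPKM untreated and 67.3, 65.5 and 65.7 FPKM treated (9.63-fold), and PER1, BHLHE40 and DBP rose 6.37-fold, 3.52-fold and 3.65-fold. Of 15 clock genes 11 had a lower metformin effect in GPD1 than in vector cells (8 under all 4 scalings) and 1 a higher one. The sampling time of day is not given. Among Kruppel-like factors KLF10, KLF6 and KLF16 rose 4.12-fold, 4.19-fold and 2.84-fold. KLF4 fell 3.71-fold. KLF2, which is raised by statins and shear stress in endothelium, was at 6.48, 5.61 and 5.85 FPKM without and 4.17, 3.56 and 3.85 FPKM with the drug in GPD1 cells and at 5.96 and 24 FPKM in vector cells (interaction -2.37; limma, adjusted p = 2.3e-07). In the MAX network the repressor MNT rose 3.12-fold, and MXD4 and MLXIP (MondoA) fell 2.67-fold and 2.12-fold.

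The glucose transporter genes SLC2A3 and SLC2A1 rose, and genes of glycolytic enzymes went both ways. SLC2A3 (GLUT3) stood at 4.67, 4.13 and 4.63 FPKM untreated and 34.8, 42.6 and 39.3 FPKM treated, 8.69-fold higher, more than in vector cells (6.26 to 20.8 FPKM; interaction 1.29; limma, adjusted p = 0.0001). SLC2A1 (GLUT1) rose 2.24-fold and the lactate dehydrogenase gene LDHB 1.52-fold. PGK1, phosphoglycerate kinase, fell 1.71-fold. Of 21 tested genes of glucose uptake and glycolysis 5 rose and 6 fell (3 and 1 under all 4 scalings). Beside them stand 26.1% and 48.0% of all tested genes (13.5% and 28.7% under all 4). The metformin effect was higher in GPD1 cells for 10 of the 21 and lower for 3 (8 and 2 under all 4 scalings). Of 24 genes of pyruvate entry and the TCA cycle 4 rose and 11 fell (1 and 3 under all 4 scalings), beside 26.1% and 48.0% of all tested genes. MPC2, a subunit of the carrier that brings pyruvate into mitochondria, rose 1.91-fold and DLD, a subunit shared by the 2-oxoacid dehydrogenases, fell 1.95-fold.

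Few NADH shuttle genes, of the transgene's own pathway, changed under all 4 scalings. Of 12 genes of the NADH shuttles 2 rose and 8 fell, with 0 and 2 under all 4 scalings. SLC25A13 (citrin), the aspartate-glutamate carrier of the malate-aspartate shuttle, stood at 9.62, 9.65 and 9.31 FPKM untreated and 3.53, 3.49 and 3.07 FPKM treated (2.83-fold lower). Vector cells held 9.31 FPKM without and 3.30 FPKM with the drug. Of 16 glycerolipid genes 3 rose and 9 fell (1 and 5 under all 4 scalings), beside 13.5% and 28.7% of all tested genes that rose and fell under all 4. The lipin gene LPIN2, whose product makes diacylglycerol, fell 2.38-fold, from 11.5 ± 0.356 to 4.84 ± 0.285 FPKM, with an interaction of -1.03 (limma, adjusted p = 2.4e-06). LPIN3 fell 3.28-fold and the triglyceride lipase gene PNPLA2 rose 1.46-fold.

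Sterol genes rose as a group. Of 25 tested genes of sterol synthesis and uptake 15 rose and 5 fell, 12 and 0 of them under all 4 scalings. MSMO1, a demethylating oxidase of cholesterol synthesis, stood at 7.65, 8.25 and 8.10 FPKM untreated and 43.3, 48.0 and 47.1 FPKM treated, 5.77-fold higher. INSIG1, which holds SREBP in the ER, rose 4.40-fold. SCD, the stearoyl-CoA desaturase, rose 3.02-fold from 158 ± 4.68 to 476 ± 12.1 FPKM. The metformin effect was higher than in vector cells in 6 members of the list and lower in 5 (3 and 2 under all 4 scalings).

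Targets of NRF2, which A549 cells hold high through a KEAP1 mutation, went both ways. Of 26 tested 8 rose and 14 fell (4 and 11 under all 4 scalings). TXNRD1, thioredoxin reductase, stood at 106, 67.6 and 97.4 FPKM untreated and 35.5, 22.6 and 21.8 FPKM treated, 3.40-fold lower. GCLM, of glutathione synthesis, fell 2.65-fold, SRXN1 (sulfiredoxin) 2.48-fold and the export pump gene ABCC2 3.05-fold. The ferritin light chain FTL, with the largest gain in FPKM of any nuclear protein-coding gene, stood at 8310, 7460 and 8327 FPKM untreated and 14740, 14870 and 15030 FPKM treated, 1.85-fold higher. NQO1, a quinone reductase that uses NADH or NADPH, rose 1.54-fold and the glutathione peroxidase gene GPX2 1.86-fold.

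Most targets of p53 that were tested rose. Of 26 tested 17 rose and 6 fell (15 and 5 under all 4 scalings). CDKN1A (p21), the inhibitor of cyclin-dependent kinases, stood at 38.6, 34.3 and 35.0 FPKM untreated and 186, 181 and 204 FPKM treated, 5.29-fold higher, with an interaction of 0.50 (limma, adjusted p = 0.00875). GADD45A, of the DNA damage response, rose 6.15-fold. BBC3 (PUMA), which promotes apoptosis, rose 4.93-fold, less than in vector cells (interaction -0.87; limma, adjusted p = 7.6e-06), and the antiapoptotic MCL1 rose 2.08-fold. Beside SESN2 and BTG2, the kinase gene PLK2 fell 1.96-fold. Of 26 members 13 had a lower metformin effect in GPD1 than in vector cells (10 under all 4 scalings) and 3 a higher one.

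Most tested genes of NF-kB and inflammatory outputs rose, and interferon genes divided. Of 20 tested genes of NF-kB subunits, regulators and inflammatory outputs 14 rose and 5 fell (12 and 3 under all 4 scalings). Their relative median was 1.09 against 1.45 in vector cells. The metformin effect was lower in GPD1 than in vector cells for 8 and higher for 2 (5 and 1 under all 4 scalings). PTGS2 (cyclooxygenase 2) stood at 4.2, 4.33 and 4.51 FPKM untreated and 34.5, 33.2 and 31.4 FPKM treated, 7.61-fold higher, and RELB rose 5.97-fold. The neutrophil chemokine genes CXCL1 and CXCL2 fell 4.46-fold and 6.01-fold, CXCL2 from 3.28 ± 0.379 to 0.545 ± 0.0301 FPKM. Of 20 interferon response genes 11 rose and 6 fell. ISG15, a ubiquitin-like protein, stood at 5.0, 4.33 and 4.10 FPKM untreated and 36.0, 36.6 and 37.1 FPKM treated, 8.17-fold higher, against 3.52 and 5.49 FPKM in vector cells (interaction 2.26, 95% interval 2.00 to 2.53; limma, adjusted p = 4.9e-07). B2M, the light chain of MHC class I, rose 2.43-fold, while STAT2, which carries interferon signals, fell 3.0-fold and OAS3 1.57-fold.

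Genes of proliferation fell nearly throughout. Of 41 DNA replication genes 40 fell and 1 rose (29 and 0 under all 4 scalings), with a relative median of -0.91 against -1.05 in vector cells. The metformin effect was higher in GPD1 than in vector cells for 18 of them and lower for 3 (11 and 2 under all 4 scalings), and FEN1 was among the 3. FEN1, the flap endonuclease that trims Okazaki fragments (ENSG00000168496, chromosome 11, 61792637 to 61797244), stood at 32.3, 35.7 and 33.4 FPKM untreated and 0.945, 0.978 and 1.28 FPKM treated, 31.7-fold lower (log2 fold change -4.08, SE 0.08; limma, adjusted p = 1.4e-10), and fell further than in vector cells (interaction -1.18; limma, adjusted p = 1.9e-05). GINS1, of the replicative helicase, fell 6.70-fold and CDC6, which loads it, 6.20-fold. Of 22 recombination and Fanconi repair genes 20 fell, among them BRIP1 (10.2-fold), XRCC2 (10.4-fold) and BLM (6.32-fold), and FANCE alone rose (1.63-fold).

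Mitotic genes fell, but less than in vector cells. Of 42 tested 41 fell (35 under all 4 scalings) with a relative median of -0.79 against -1.39 in vector cells. The interaction was positive in 29 of them (24 under all 4 scalings) and negative in 1. CENPF, of the kinetochore, stood at 29, 29.3 and 30.1 FPKM untreated and 5.18, 5.12 and 4.94 FPKM treated (5.80-fold lower; interaction 0.68; limma, adjusted p = 1.9e-05). SPC25 and KIF20A fell 8.48-fold and 6.18-fold. CDC25B, the phosphatase that starts mitosis, was the one member that rose, 2.43-fold. Of 20 G1 genes 13 fell and 2 rose, with E2F2, the transcription factor of S phase, 10.7-fold lower and CDKN2C (p18) 7.60-fold lower.

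**Figure D4:**
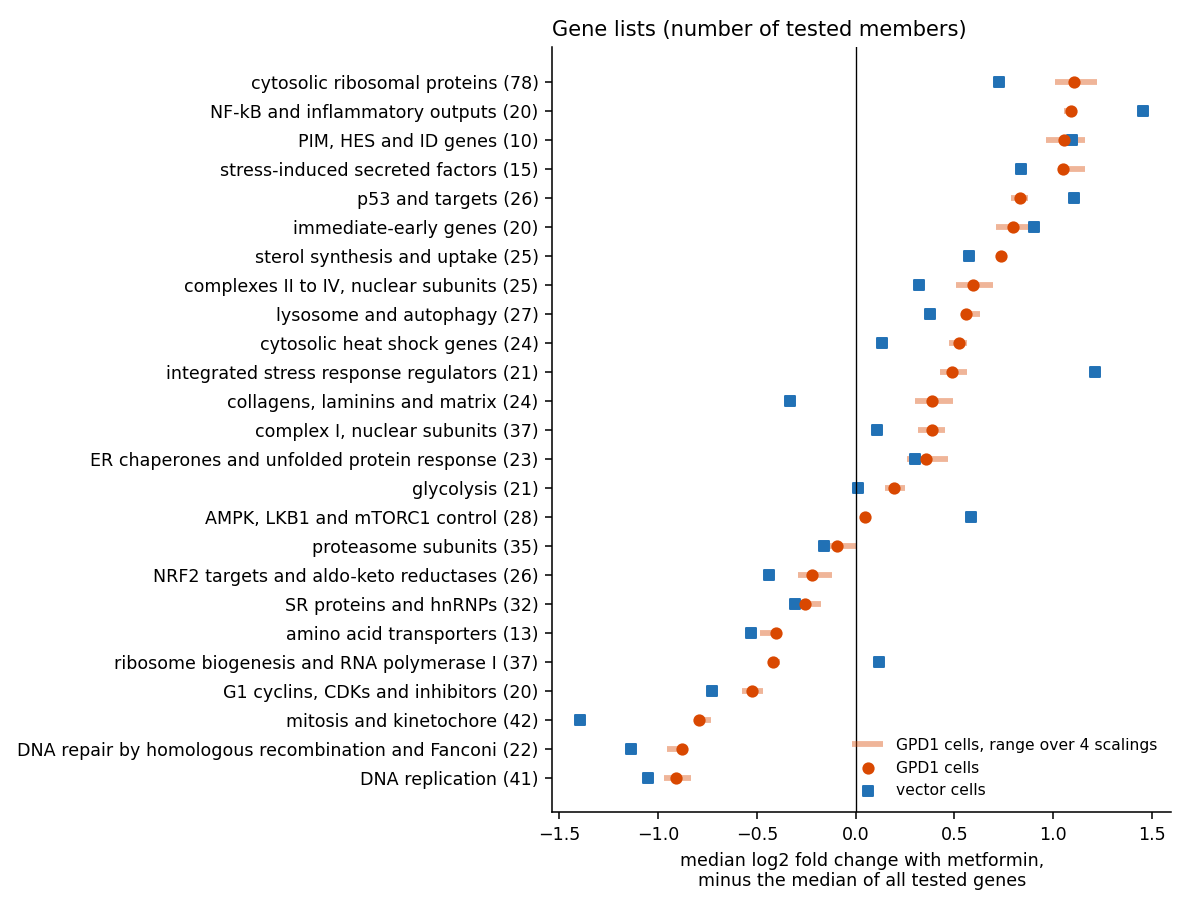
Median log2 fold change with metformin of 25 gene lists, minus the median of all 12607 tested genes, in GPD1 cells (circles, with the range over 4 scalings as a bar) and vector cells (squares). Lists not drawn include the mitochondrial genome (-3.33 against -2.36) and Kruppel-like factors (0.41 against 1.30). Of those drawn, the medians of the 2 populations stand furthest apart for the integrated stress response (0.49 against 1.21), matrix genes (0.39 against -0.33), mitosis (-0.79 against -1.39), AMPK and mTORC1 control (0.05 against 0.585) and ribosome biogenesis (-0.42 against 0.12). A distance between list medians is not the median of the gene-by-gene interaction. Relative to all tested genes, that median was -0.18 for the integrated stress response, 0.54 for matrix genes and 0.48 for mitosis. It was -0.38 for AMPK and mTORC1 control and -0.39 for ribosome biogenesis.

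Ribosomal proteins rose while the genes that build ribosomes fell. Of 78 cytosolic ribosomal protein genes 75 rose and 1 fell (69 and 0 under all 4 scalings), with a relative median of 1.11. Together they took 2.77% to 2.87% of all FPKM without the drug and 5.25% to 5.50% with it. RPS27 stood at 46.8, 50.1 and 54.7 FPKM untreated and 220.2, 211 and 209 FPKM treated (4.22-fold), and RPS29 rose 3.25-fold. These genes are short, and how reads shared with their processed pseudogenes were assigned is not given. With the length trend removed their relative median was 1.05. EEF1A1, the elongation factor whose mRNA is controlled with theirs, rose 2.19-fold, and EIF4EBP1, an inhibitor of cap-dependent initiation, 2.56-fold.

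Ribosome biogenesis fell in GPD1 cells. Of 37 tested genes 29 fell and 7 rose (20 and 3 under all 4 scalings). The metformin effect was lower than in vector cells in 23 of them (19 under all 4 scalings) and higher in 2 (0). NOP56, a core protein of box C/D small nucleolar particles, stood at 12.2, 12.2 and 12 FPKM untreated and 1.5, 1.75 and 1.46 FPKM treated (7.72-fold lower; interaction -0.83; limma, adjusted p = 1.1e-05). Its partner NOP58 fell 4.64-fold, from 18.9 ± 1.39 to 4.08 ± 0.156 FPKM, with an interaction of -1.28 (limma, adjusted p = 1.7e-05). POLR1A, a catalytic subunit of RNA polymerase I, fell 5.24-fold. NPM1 (nucleophosmin), whose product is also a chaperone of ribosomal proteins, rose 1.61-fold.

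**Figure D5:**
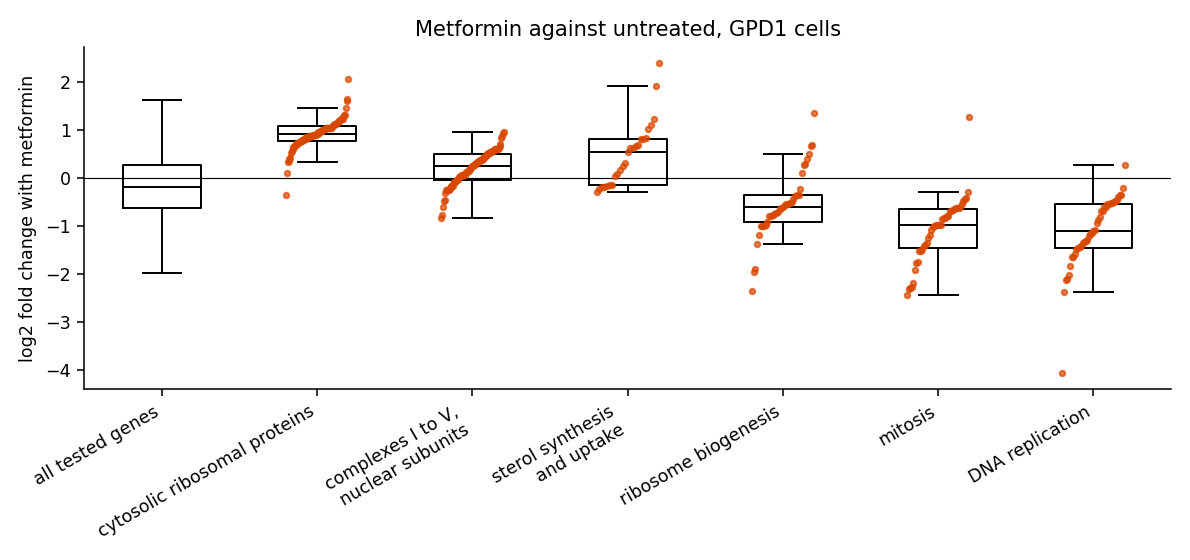
Log2 fold changes with metformin in GPD1 cells for all tested genes (box without points) and for the tested members of 6 groups of genes (points, sorted). Boxes show medians and quartiles, and whiskers reach 1.5 times the quartile range at most. Ribosomal proteins lie almost wholly above 0 and replication and mitosis genes almost wholly below.

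Splicing and translation factors with large falls included several whose own transcripts are known to be spliced into unstable forms. Of 32 SR protein and hnRNP genes 22 fell and 7 rose (13 and 5 under all 4 scalings), beside 48.0% and 26.1% of all tested genes. In 15 the effect was lower than in vector cells (9 under all 4 scalings). SRSF6 stood at 33.5, 33.4 and 32.1 FPKM untreated and 8.22, 9.23 and 7.83 FPKM treated, 3.92-fold lower, with an interaction of -1.31 (limma, adjusted p = 9.5e-07). HNRNPM fell 5.85-fold and SRSF5 4.29-fold. CLK1, a kinase that phosphorylates SR proteins, rose 2.78-fold. EIF5, a GTPase activator of initiation, fell 6.10-fold, from 8.85 ± 3.45 to 1.45 ± 0.34 FPKM, and EIF1, of start codon choice, rose 3.44-fold. Gene-level values cannot tell a loss of transcript from a change of splice form.

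The metformin effect on most matrix genes tested was higher in GPD1 than in vector cells. Of 24 tested 13 rose and 5 fell in GPD1 cells (5 and 2 under all 4 scalings). The effect was higher than in vector cells for 19 (18 under all 4 scalings) and lower for 1 (0). COL4A1, of basement membrane collagen (ENSG00000187498, chromosome 13, 110148963 to 110307149), stood at 17.4, 17.8 and 16.8 FPKM untreated and 21.5, 22.6 and 22.8 FPKM treated in GPD1 cells, a rise (limma, adjusted p = 3.7e-05) that turned to -0.03 log2 units with totals taken without mitochondrial genes. In vector cells it went from 44.9, 41.7 and 43.5 FPKM to 14.5, 13.6 and 13.6 FPKM. The vector cells thus began with more and ended with less, and the interaction was 1.92 (95% interval 1.78 to 2.06; limma, adjusted p = 5.4e-08). Fibronectin (FN1) rose 2.46-fold. COL5A1 fell 2.73-fold, against 16.9 to 1.59 FPKM in vector cells (interaction 1.63; limma, adjusted p = 7.6e-07). The junction genes TJP1 and CDH2 fell 2.88-fold and 2.17-fold, and SNAI1, a repressor of epithelial genes, rose 4.42-fold.

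In insulin signalling the adaptor IRS1 fell most. IRS1 stood at 26.4, 27.6 and 27.2 FPKM untreated and 3.33, 3.31 and 3.68 FPKM treated, 7.87-fold lower, further than in vector cells (18.3 and 8.15 FPKM; interaction -1.58; limma, adjusted p = 3.6e-07). The receptor gene IGF1R fell 2.45-fold. IGFBP4, a secreted binding protein among the most abundant transcripts of these cells, rose 1.58-fold, from 1507 ± 37.9 to 2386 ± 27.5 FPKM. In all 14 of 20 tested genes fell and 4 rose (6 and 3 under all 4 scalings), beside 48.0% of all tested genes that fell and 28.7% that fell under all 4. The relative median was -0.16.

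Some of the largest changes lay outside these lists. TMEM265, a small membrane protein, stood at 2.09, 3.87 and 2.12 FPKM untreated and 89.6, 72.2 and 87.6 FPKM treated, 30.9-fold higher, above the effect in vector cells (interaction 2.15; limma, adjusted p = 0.0107). S100P, a calcium-binding protein, rose 15.7-fold and TSC22D3 (GILZ), a glucocorticoid-induced leucine zipper protein, 11.2-fold. Among those that fell, INTS5 of the Integrator complex was 21.2-fold, the death receptor adaptor FADD 8.56-fold, the tubulin gene TUBB4B 6.83-fold and the activin subunit INHBB 6.88-fold lower. TUBB4B stood at 165, 160.0 and 157 FPKM untreated and 22.4, 24.5 and 23.5 FPKM treated. Among long noncoding RNAs GAS5 and ZFAS1, hosts of small nucleolar RNAs whose spliced forms are degraded on ribosomes, rose 3.50-fold and 3.41-fold, and MAFG-DT fell 12.7-fold.

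Fold changes followed gene length and gene class. Among 10154 protein-coding genes the median log2 fold change was 0.01 in the shortest 25% by merged exon length (207 to 3190 bases), -0.18 and -0.31 in the next sets of 25% and -0.36 in the longest (7410 to 42341 bases). In vector cells the same medians were -0.04, -0.14, -0.18 and -0.23. Processed pseudogenes, which are spliced copies of mRNAs, rose in 374 and fell in 134 of 704 cases (median 0.39). Annotated snoRNA genes rose in 64 and fell in 16 of 149 (median 0.42), although such short RNAs carry no poly(A) tail. Whether length itself or the kinds of genes that are short moves the medians was not tested. ACTB and GAPDH, often taken as references, changed by 0.19 and 0.24 log2 units without passing the test (limma, adjusted p = 0.0685 and 0.0685) and by -0.19 and -0.15 with totals taken without mitochondrial genes, and TUBA1B fell 2.25-fold. Of 206 genes named with values, 48 overlap another tested gene in their span, 33 of them one on the opposite strand, among them TWNK (with MRPL43), FEN1 (with TMEM258) and COL4A1 (with COL4A2). As counting by strand is not stated, reads of such pairs cannot be told apart where they overlap.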

How the data were processed

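Polyadenylated RNA of 12 A549 libraries was sequenced, 3 in each of 4 groups taken from the labels. Libraries were made with the NEBNext Ultra kit, per the labels' protocols. GRCh38 (hg38), HISAT2 2.1.0, CASAVA 1.8 and edgeR are named, without roles, in the submitters' processing notes. Not given in the sources used here are the program behind the values, its annotation and any use of strand. Values for 58302 genes were deposited by the authors in FPKM. The header names no unit, which was read from the values: with GENCODE 29 exon lengths, 64.7% to 69.5% of values of up to 10 reads were whole within 0.02. RPKM cannot be told apart from it. Depths of 13.3 to 18.0 M reads per library follow from these steps.

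Genes that averaged 1 FPKM or more across 12 libraries were fitted as log2(FPKM + 1) in limma 3.58.1 (R 4.3.3) as 4 group means, with an intensity trend and Benjamini-Hochberg adjustment over the 12607 genes, at a threshold of 0.05. This scale understates the change of low genes. The fit was tested on simulated data. The interaction is the metformin effect in GPD1 minus that in vector cells. Beside the deposited scale stand 3 other scalings: median-ratio factors, upper-quartile factors and totals without mitochondrial genes. Other alternatives were a pseudocount of 0.1, no filter or a minimum of 5 FPKM, a minimum change of 1 log2 unit, replicate number as a block, length or GC trends removed (splines with 5 degrees of freedom), gene subsets and each library left out.

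Members and lists were chosen with earlier results of these data known. Named with values were GPD1, up to 12 protein-coding genes per direction with the largest changes at a mean of 5 FPKM or more, no overlap and the same call under all scalings, up to 3 per direction from each list, called without overlap at 2 FPKM or more, 6 per direction by interaction, 5 per direction by difference in FPKM, 4 noncoding genes per direction, and the 13 mitochondrial genes. Not all that qualified are named, and some are not reported here. Chosen after their values were seen were ACTB, AREG, ATF3, ATF4, CASTOR1, CEBPB, CHORDC1, CXCL1, CXCL2, DBP, DNAJB1, DUSP6, EREG, GAPDH, GCLM, HSP90AB1, HSPA5, HSPA8, HSPB1, HSPB8, JUND, KLF4, NFIL3, PRKAA1, PSAT1, PSPH, SRXN1, TRIB3 and UBB, and the stretches of promoter printed. Not analysed here were 12 libraries from 786-O, a kidney cancer line.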

Additional observations from a re-analysis of the deposited data

Results flagged for a closer look

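The difference of the metformin effect between GPD1 and vector cells was tested for every gene, and the 6 protein-coding genes with the largest difference in each direction are given here. The values are log2 units, GPD1 minus vector. Those with the higher effect in GPD1 cells were HSPA1B (4.38), HSPA1A (4.25), FOS (2.80), ISG15 (2.26), TMEM265 (2.15) and COL4A1 (1.92), all described above. AGO2, an Argonaute protein of RNA silencing (-1.90), stood at 6.14 FPKM untreated and 5.95 FPKM treated in GPD1 cells, and at 7.25 and 28.9 FPKM in vector cells. MED29, a Mediator subunit (-1.88), stood at 7.34 and 3.53 FPKM against 3.80 and 6.71 FPKM. GPRC5A, a retinoic acid-induced receptor (-1.99), was at 31.1 and 40.4 FPKM against 19.6 and 105 FPKM. For NACC2 (-2.05) the means were 15.2 and 2.76 FPKM against 14.7 and 14.2 FPKM, for IFFO2 (-2.19) 13.5 and 4.84 FPKM against 9.85 and 18.9 FPKM, and for FAM102A (-2.24) 12.6 and 6.48 FPKM against 4.10 and 11.8 FPKM. In limma the adjusted p of these 6 lay between 1.7e-08 (IFFO2) and 0.0443 (MED29), with 0.00576 for FAM102A. MED29 and FAM102A had libraries apart from the others of their group. MED29 stood at 4.71, 4.88 and 1.01 FPKM in treated GPD1 libraries and 0.933, 5.15 and 5.32 FPKM in untreated vector libraries, and FAM102A at 10.3, 4.31 and 4.78 FPKM in treated GPD1 libraries. The difference for MED29 was no longer called with median-ratio or upper-quartile factors (-1.81 and -1.71), with a pseudocount of 0.1 (-2.43) or without any 1 of 8 libraries (-2.01 to -1.32), namely treated GPD1 library 3, any untreated GPD1 or treated vector library, or untreated vector library 1. Groups of 3 libraries are too small for a test of outlying libraries.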

How the results depend on the processing

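The count of called genes stayed within 1.5 times under a pseudocount of 0.1, removal of a length or GC trend, protein-coding genes alone, omission of genes that varied 5 times or more within a group, and each library left out in turn. A fit of only the 6 GPD1 libraries called 9301 genes. Same-numbered libraries do not pair (correlations of deviations 0.02, 0.04 and -0.07), and with the replicate block 9253 genes were called (3242 higher, 6011 lower) and 5643 for the difference between populations, without MED29 (-1.88; limma, adjusted p = 0.0695). A minimum mean of 5 FPKM, with fewer genes tested, left 4361 calls (2095 higher, 2266 lower) and 3029 for the difference (1372 and 1657). A minimum of 1 log2 unit left 2161 (637 and 1524) and 863 (147 and 716). Upper-quartile factors gave 5804 higher and 3622 lower and 3975 higher for the difference, totals that leave out mitochondrial genes gave 1706 higher, and no filter gave 9359 lower.

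Over all tested genes 430 had opposite calls with the deposited scale and upper-quartile factors, and 197 with totals that leave out mitochondrial genes. With totals taken without mitochondrial genes GAPDH stood at -0.15, ACTB at -0.19, TRIB3 at -0.20, COL4A1 at -0.026, HSP90AB1 at -0.032 and GPRC5A at -0.013. AGO2 and GPD1 turned to 0.18 and 0.019 with median-ratio and to 0.37 and 0.23 with upper-quartile factors, and the difference for MT-ND4 to 0.041 and 0.16. The relative median of the large mitoribosome subunit was -0.005 with the length trend removed, and that of the proteasome 0.002 with upper-quartile factors. The relative median of AMPK and mTORC1 control ran from -0.036 to 0.066 as libraries were left out. The cause of these changes was not tested. At 13.3 to 18.0 M reads per library, short genes near 1 FPKM rest on few reads.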

Other observations

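Mitochondrial ribosome genes, which translate the 13 mitochondrial messages, did not move one way. Of 49 large subunit genes 12 rose and 14 fell, and of 32 small subunit genes 8 rose and 17 fell, against 26.1% and 48.0% of all tested genes. MRPL35 fell 2.91-fold and MRPL1 3.10-fold, while MRPL44 rose 1.72-fold, and MRPS31 fell 2.78-fold while MRPS24 rose 1.65-fold. Of 19 mitochondrial chaperones and proteases 6 rose and 7 fell (0 and 4 under all 4 scalings), beside the same 26.1% and 48.0%. CLPX, the unfoldase of a matrix protease, was 2.71-fold lower (11.9 ± 0.289 to 4.38 ± 0.236 FPKM, mean ± SD, n = 3). The counts for fatty acid oxidation were 4 and 6 of 16 (0 and 1 under all 4 scalings). Of these 16 genes 6 had a higher metformin effect in GPD1 than in vector cells against 1 with a lower one.

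Among 18 hypoxia response genes 11 rose and 4 fell (4 and 1 under all 4 scalings). EGLN1 (PHD2), the oxygen sensor that marks HIF for breakdown, fell 2.90-fold. In the BCL2 family 7 of 12 tested genes rose and 2 fell, and BAK1, which forms pores in the outer mitochondrial membrane, rose 2.11-fold. The metallothionein gene MT1X, a zinc-binding protein, rose 1.90-fold, with an interaction of 0.56 (limma, adjusted p = 0.00059). TKT, transketolase of the pentose phosphate pathway, rose 1.85-fold, and NADK, the kinase that makes NADP, fell 2.14-fold.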
